A study of Rattus norvegicus with 12 samples.

Results

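The 9 genes described here, Oas1a, Oas3, Oasl, Mx1, Mx2, Isg15, Ifi27, Lgals3bp and Slfn3, are antiviral effectors or relatives of them, and they were taken by symbol from 17337 genes listed in rat blood. All 9 were found, once each. They had been picked with their strain differences in these libraries already known, so those differences are given as a description with no test. In the 6 blood libraries of WKY rats, all 9 genes averaged higher than in the 6 libraries of F344 rats under either treatment, by fitted log2 differences of 0.23 to 3.74, with Oasl after stress at the low end. None of the 9 passed the test for a change after chronic restraint stress.

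Interferon-stimulated genes are kept low in resting cells and switched on when type I or type III interferon binds its receptor. The receptor's kinases activate transcription factors that enter the nucleus and bind a short promoter element, the interferon-stimulated response element (ISRE). The proteins made in this way act on viral RNA, on viral particles or on the signalling itself, and in blood they are read as a record of interferon exposure, since leukocytes of most types can make them.

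Whole blood came from adult male rats of 2 inbred strains, Wistar Kyoto (WKY) and Fischer (F344), aged 70 to 90 days at the start. All rats, the unstressed ones included, went through contextual fear conditioning before and again after the treatment period and spent 4 weeks in the home cage in between; blood was taken 24 hours after the second round of testing. Chronic restraint stress (CRS) meant 2 hours a day in a restraint bag for 2 weeks, and rats without stress (NS) stayed in the home cage. The 4 groups were WKY CRS, WKY NS, F344 CRS and F344 NS, with 3 libraries each. Nothing in the labels ties each library to a rat of its own, and a p-value here therefore speaks of the spread among libraries, which may be technical.

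Genes received 1691956 to 3846263 counts per library, of which 90796 to 419789 lay outside the 3 most abundant features. The 9 genes together had 53 to 766 counts per library, fewest in F344 NS replicate 3. Levels are CPM, counts scaled by TMM to a common library total; 1 count was worth 0.202 to 1.14 CPM, so a low level moves in coarse steps. Gene length was not used, so levels are compared between libraries and never between genes. In bulk blood, fewer cells of a type and less RNA per cell cannot be told apart.

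The promoters are shown because the ISRE is the element through which this class of gene is known to be switched on. RefSeq promoter windows of build GRCr8, from 250 bases before to 50 bases after each start site, were at hand for 7 of the 9 genes; Mx2 and Isg15 were not among them. The search was for the ISRE core, GAAA, 2 bases of any kind and GAAA again, on both strands. It was found in 4 of the 7 genes, namely Oas1a, Oas3, Ifi27 and Lgals3bp, and in 4.12% of 27457 genes with a window. Among genes that passed the filter on low counts here, 4.06% of 2166 held it. The 200 bases before the start of each of the 4 genes are given 5′ to 3′ on the gene's strand, with the ISRE core in capitals.
Oas1a, chr12:41330266-41330465, plus strand: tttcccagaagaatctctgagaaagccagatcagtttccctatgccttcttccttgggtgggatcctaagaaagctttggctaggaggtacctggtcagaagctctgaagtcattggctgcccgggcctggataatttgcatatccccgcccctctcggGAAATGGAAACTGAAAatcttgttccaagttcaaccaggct
Oas3, chr12:41439532-41439731, plus strand: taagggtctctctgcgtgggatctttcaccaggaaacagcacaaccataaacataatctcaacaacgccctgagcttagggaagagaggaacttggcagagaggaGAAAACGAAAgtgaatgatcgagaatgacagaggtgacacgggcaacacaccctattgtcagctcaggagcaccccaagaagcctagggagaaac
Ifi27, chr6:128355112-128355311, plus strand: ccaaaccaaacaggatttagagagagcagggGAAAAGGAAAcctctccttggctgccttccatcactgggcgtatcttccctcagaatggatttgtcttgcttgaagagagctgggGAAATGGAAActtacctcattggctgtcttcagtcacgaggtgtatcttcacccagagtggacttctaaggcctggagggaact
Lgals3bp, chr10:104127849-104128048, minus strand: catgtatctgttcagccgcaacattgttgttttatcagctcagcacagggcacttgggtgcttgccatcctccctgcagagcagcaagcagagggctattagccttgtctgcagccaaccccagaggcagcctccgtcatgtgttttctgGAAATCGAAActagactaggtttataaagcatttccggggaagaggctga

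In Oas1a the match was a run of overlapping cores, GAAATGGAAA beginning 41 bases before the start and GAAACTGAAA beginning 35 bases before it. Lgals3bp had a single core beginning 50 bases before its start, and Oas3 had one beginning 95 bases before. Ifi27 held separate cores beginning 169 and 84 bases before its start. These letters were not in the windows of Oasl, Mx1 and Slfn3. A second element known from interferon-gamma signalling, GAS, searched as TTCNNNGAA, which reads alike on both strands, was in the windows of Oas1a and Slfn3 and in 9.39% of the 27457 genes; it overlapped no ISRE core. A match is a stretch of letters in the reference and not a measured binding site, and GRCr8 is another build than the rn6 that the submitters' processing notes name.

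Oas1a, Oas3 and Oasl belong to the oligoadenylate synthetase (OAS) family, whose enzymes sense double-stranded RNA and make the second messenger that turns on RNase L, an RNA-degrading enzyme. Oas1a had 9.17, 7.85 and 5.91 CPM in the WKY CRS libraries and 8.52, 7.54 and 5.03 CPM in the WKY NS libraries, against 0.807, 0.683 and 0.406 CPM in F344 CRS and 0.276, 0.609 and 1.14 CPM in F344 NS. Every WKY library lay above every F344 library, with a gap between the lowest WKY and the highest F344 value that was wider than the spread within any group. The summed counts were 72 in WKY CRS and 73 in WKY NS, against 8 in F344 CRS and 3 in F344 NS. Without stress the ratio of WKY to F344 was 15, with an exact 95% interval of 4.93 to 74.3 that covers counting error only. Since Oas1a was picked with this difference known, the interval shows how coarse the ratio is and is no test of it. The fitted log2 difference of WKY over F344 was 3.54 after CRS and 3.74 without stress, which made Oas1a the gene with the largest strain difference of the 9 under both treatments; the value without stress moved between 2.79 and 4.58 under other settings and was 3.12 without F344 NS replicate 1.

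Oas3, the longest synthetase of the family in mammals and the one most closely tied to RNase L activation in human cells, had 7.13, 7.41 and 12.5 CPM in WKY CRS and 9.67, 9.50 and 5.42 CPM in WKY NS, against 6.46, 3.07 and 4.06 CPM in F344 CRS and 3.03, 0 and 3.43 CPM in F344 NS. Within each treatment the strains stood apart, but the lowest WKY NS library was below the highest F344 CRS library. On the log2 scale WKY exceeded F344 by a fitted 0.95 after CRS and 1.90 without stress, and by 2.74 without stress when F344 NS replicate 1 was left out.

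Oasl, whose human counterpart has lost the synthetase activity and acts on the RIG-I sensor, behaved unlike the rest. It had 2.29, 6.11 and 3.29 CPM in WKY CRS and 4.84, 3.28 and 1.55 CPM in WKY NS, against 4.24, 2.73 and 2.44 CPM in F344 CRS and 0.552, 0.609 and 0 CPM in F344 NS. The low group was F344 NS alone, with 3 counts in all, while the F344 CRS libraries with 41 counts lay inside the range of both WKY groups. The strain difference was accordingly 7.18-fold without stress, for 35 against 3 counts. Its exact interval of 2.26 to 36.5 covers counting error only and leaves out the spread between the 3 libraries of a group. Oasl too was picked with this difference known, so the interval is no test of it. After CRS the fitted log2 difference of WKY over F344 was 0.23, and it was -0.20 without replicate 2 of WKY CRS.

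Close copies bear on these 3 genes. In the GRCr8 annotation Oas1a and Oas3 lie on chromosome 12 among further Oas1 genes, Oasl lies beside Oasl2 and overlaps another locus, and reads that fit several copies could have been split or dropped in the authors' counting. Of the other OAS genes, Oas1k and Oasl2 passed the filter. Oasl2 had 40 counts in WKY CRS and 44 in WKY NS, against 66 in F344 CRS and 37 in F344 NS, and its log2 difference averaged over treatments was -0.35 (SE 0.300, adjusted p = 0.652). Among those too low to be tested, Oas1d, Oas1e, Oas1f and Oas1h had 1 to 4 counts in all 12 libraries together. Oas1b had 27 counts in WKY CRS and 30 in WKY NS, against 21 in F344 CRS and 9 in F344 NS. Oas1i had 18 counts in WKY CRS and 20 in WKY NS, against 3 in F344 CRS and 2 in F344 NS. Oas2 had 25 counts in WKY CRS and 15 in WKY NS, against 3 in F344 CRS and 1 in F344 NS. These genes were picked for mention after their values were seen.

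Mx1 and Mx2 are dynamin-like GTPases that trap incoming virus; the rat Mx1 protein is nuclear and the rat Mx2 protein cytoplasmic. Mx1 had 18.6, 16.1 and 18.7 CPM in WKY CRS and 21.4, 11.5 and 17.4 CPM in WKY NS, against 6.26, 8.53 and 8.73 CPM in F344 CRS and 6.34, 7.92 and 4.58 CPM in F344 NS. Mx2 had 9.17, 9.60 and 8.21 CPM in WKY CRS and 8.29, 7.86 and 8.90 CPM in WKY NS, against 1.82, 1.37 and 3.04 CPM in F344 CRS and 3.03, 1.83 and 3.43 CPM in F344 NS. For both genes all 6 WKY libraries lay above all 6 F344 libraries, and the 2 treatments of a strain overlapped. Mx2 was also the steadiest of the 9 in WKY relative to its mean, at 8.99 ± 0.707 CPM after CRS and 8.35 ± 0.522 CPM without stress (SD, n = 3 each). The fitted log2 difference of WKY over F344 was 1.19 after CRS and 1.38 without stress for Mx1, and 2.04 after CRS and 1.59 without stress for Mx2. The Mx genes lie on either side of Fam3b on chromosome 11 and share sequence, so reads common to both are uncertain.

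Isg15 encodes a ubiquitin-like protein that is joined to other proteins during the interferon response. It had 8.92, 8.72 and 5.59 CPM in WKY CRS and 9.44, 5.24 and 2.71 CPM in WKY NS, against 2.62, 1.37 and 0.812 CPM in F344 CRS and 1.65, 0.609 and 1.14 CPM in F344 NS. The strains did not overlap, though the lowest WKY NS library, at 2.71 CPM, was only just above the highest F344 CRS library. The fitted log2 difference of WKY over F344 was 2.22 under both treatments, and leaving out replicate 1 of F344 in the same treatment made it 2.86 after CRS and 2.88 without stress. Of the enzymes that attach or remove ISG15, 3 passed the filter: averaged over treatments, Ube2l6, a conjugating enzyme, had a log2 difference of 1.28 (SE 0.607, adjusted p = 0.268), Usp18, which removes ISG15, 1.21 (SE 0.491, adjusted p = 0.168) and Trim25, a ligase, 0.18 (SE 0.287, adjusted p = 0.848), and none passed the threshold of 0.05.

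Ifi27, whose human protein is a small mitochondrial protein, had 9.68, 14.0 and 6.57 CPM in WKY CRS and 13.4, 8.19 and 9.68 CPM in WKY NS, against 4.64, 1.02 and 3.86 CPM in F344 CRS and 3.31, 0 and 3.43 CPM in F344 NS. All 6 WKY libraries were higher than all 6 F344 libraries, and the library at 0, F344 NS replicate 2, was the same one that had no count for Oas3. In the fit WKY exceeded F344 by 1.55 after CRS and 2.14 without stress, both on the log2 scale. The value without stress was 3.07 when F344 NS replicate 1 was left out. Its neighbour and relative Ifi27l2b had a log2 difference of -0.06 (SE 0.430, adjusted p = 0.974) averaged over treatments.

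Lgals3bp, a secreted glycoprotein that binds galectins, had 19.1, 29.7 and 7.89 CPM in WKY CRS and 17.3, 27.2 and 11.2 CPM in WKY NS, against 5.45, 6.14 and 5.48 CPM in F344 CRS and 3.86, 4.26 and 5.72 CPM in F344 NS. Its WKY libraries were widely spread and its F344 libraries close together: the WKY CRS libraries averaged 18.9 ± 10.9 CPM and the F344 CRS libraries 5.69 ± 0.393 CPM (SD, n = 3 each). The strains did not overlap. The fitted log2 difference of WKY over F344 was 1.71 after CRS and 2.09 without stress.

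Slfn3 belongs to the Schlafen family, which is induced by interferon and has been studied in mouse lymphocyte quiescence and in the rat gut lining. It had the most counts of the 9. The libraries gave 87.9, 54.5 and 89.7 CPM in WKY CRS and 83.6, 82.9 and 63.1 CPM in WKY NS, against 26.4, 34.5 and 28.2 CPM in F344 CRS and 29.2, 44.5 and 37.7 CPM in F344 NS. All WKY libraries were above all F344 libraries. Its fitted log2 difference of WKY over F344 was 1.39 after CRS and 1.06 without stress. Slfn2, a relative in the same family, had 15.5 ± 1.65 CPM in WKY CRS and 15.1 ± 3.47 CPM in WKY NS, against 10.1 ± 2.2 CPM in F344 CRS and 13.4 ± 2.31 CPM in F344 NS (SD, n = 3 each), and its log2 difference averaged over treatments was 0.42 (SE 0.224, adjusted p = 0.395).

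**Figure D1:**
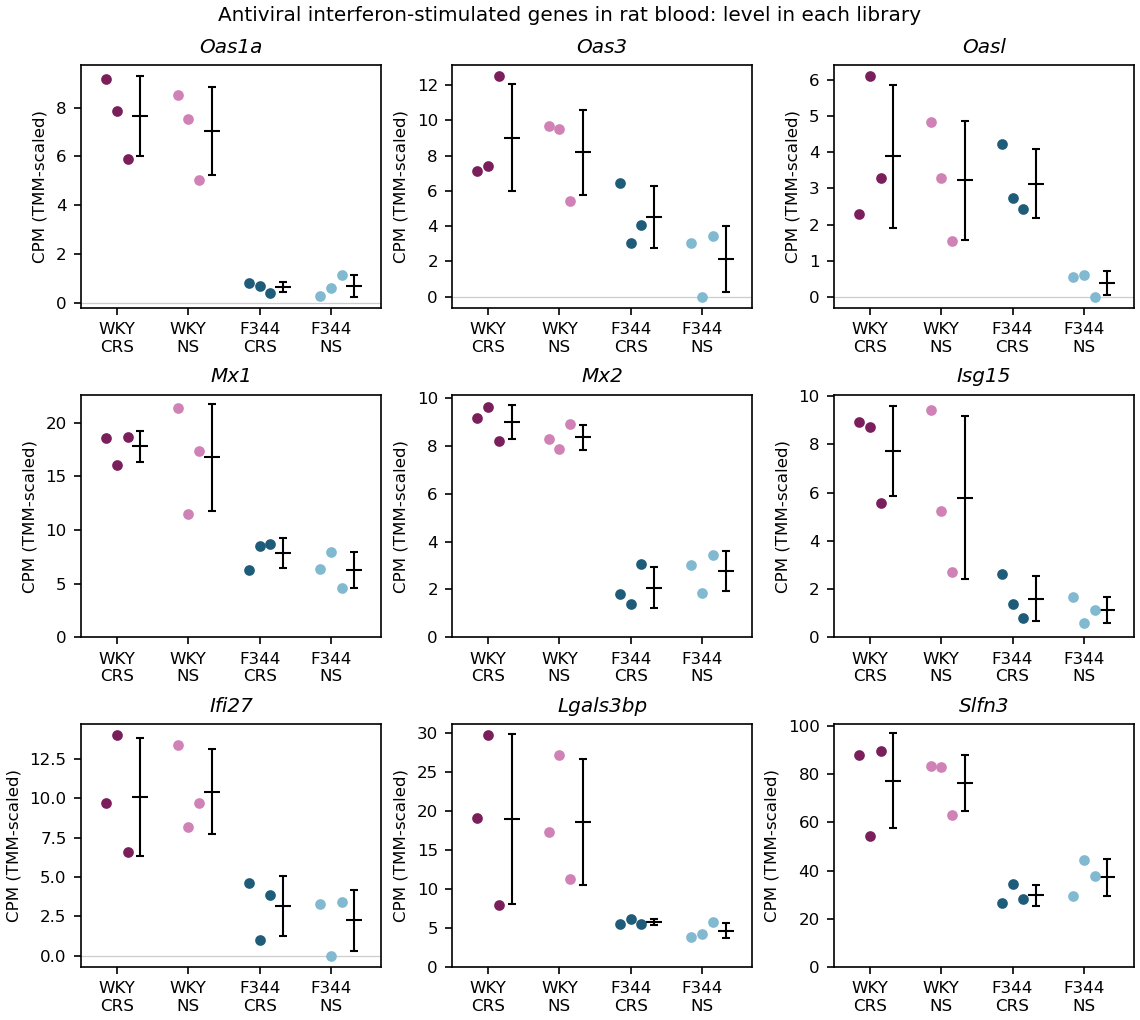
Level of each of the 9 genes in CPM (linear axis, TMM-scaled) in the 12 libraries; points are libraries and the black marks beside them the mean ± SD of 3. WKY points lie above F344 points in 7 of the 9 panels, while Oas3 and Oasl overlap, Oasl through its F344 CRS libraries at 2.44 to 4.24 CPM.

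Across the 9 genes, CRS and NS libraries of a strain overlapped except for Oasl in F344, and the strains mostly did not. Without stress, the 3 WKY libraries lay above the 3 F344 libraries for 9 of 9 genes, a pattern that 7.7% of the 2781 tested genes showed. After CRS this held for 8 of 9 genes, all but Oasl, against 9.64% of the tested genes. All 6 WKY libraries lay above all 6 F344 libraries for 7 of 9, all but Oas3 and Oasl, against 1.4% of the tested genes. Since the genes had been picked on this contrast, nothing is read from these shares. The median fitted log2 difference of WKY over F344 was 1.55 after CRS and 2.09 without stress, beside 0.01 and -0.01 over all tested genes. All 9 passed the filter on low counts, which a gene can do through the higher strain alone.

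Summed over the 9 genes, the WKY CRS libraries reached 172, 154 and 158 CPM and the WKY NS libraries 176, 163 and 125 CPM. The F344 CRS libraries reached 58.7, 59.4 and 57.0 CPM and the F344 NS libraries 51.3, 60.3 and 60.6 CPM. Slfn3 made up much of these sums, and without it the sums were 84.1, 99.4 and 68.7 CPM in WKY CRS and 92.8, 80.3 and 61.9 CPM in WKY NS, against 32.3, 24.9 and 28.8 CPM in F344 CRS and 22.1, 15.8 and 22.9 CPM in F344 NS. The strains stayed apart on both sums. Within WKY NS the genes leaned the same way across libraries: replicate 1 was the highest for 7 of the 9 and replicate 3 the lowest for 6. Elsewhere the most frequent highest library led for 4 genes in WKY CRS, 5 in F344 CRS and 5 in F344 NS. The most frequent lowest library was so for 5 genes in WKY CRS, 3 in F344 CRS and 4 in F344 NS. Depth in WKY NS ran the same way, at 347841 counts outside the top features in replicate 1 and 170507 in replicate 3. Its part in the lean was not tested.

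CRS was compared with NS in each strain, a contrast that the choice of genes had not used directly, although its libraries are shared with the strain contrasts. In WKY, the log2 change of CRS over NS was between -0.09 for Ifi27 and 0.35 for Isg15, with a median of 0.11 over the 9 genes and 0.02 over all tested genes, and 8 of 9 were positive, with Lgals3bp at 0.00 and at -0.0031 under upper quartile scaling. Every 95% interval held 0, and together they reached from -0.89 to 1.18. A log2 change of 1, which is a doubling, was inside the intervals of Isg15 and Oasl and outside those of the other 7. No gene of the 9 had an unadjusted p under 0.05. By edgeR's quasi-likelihood test 0 of the 2781 genes were called in WKY, or 0%, with 161 at an unadjusted p under 0.05, and the DESeq2 Wald test also called 0. No gene of the 9 had all CRS libraries above all NS libraries in WKY, a pattern of 4.93% of the tested genes.

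In F344, the log2 change of CRS over NS was between -0.35 for Mx2 and 2.62 for Oasl, with a median of 0.35 over the 9 genes and 0.01 over all tested genes, and 7 of 9 were positive, among them Oas1a, which was at -0.53 by limma-voom with quality weights. Oasl was the one gene of the 9 whose CRS libraries all lay above its NS libraries, at 4.24, 2.73 and 2.44 CPM in CRS against 0.552, 0.609 and 0 CPM in NS; 6.22% of the tested genes showed that pattern. Its count ratio was 6.55, with an exact 95% interval of 2.09 to 33.1 for 41 against 3 counts, which covers counting error only and not the spread between libraries. In the fit the log2 change was 2.62 (SE 0.958, 95% interval 0.68 to 4.56), with an unadjusted p of 0.00176 and an adjusted p of 0.530 over the 2781 genes, so it did not pass the threshold. Under the other settings the adjusted p for Oasl was between 0.237 and 0.9995. Oas3 followed with a log2 change of 1.06 (SE 0.564, 95% interval -0.0822 to 2.204, adjusted p = 0.918). Again 0 of 2781 genes were called, or 0%, with 130 at an unadjusted p under 0.05 and 0 by the DESeq2 Wald test.

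The summed levels of 2 marker lists moved with Oasl in F344. The monocyte sum was 82.3 to 88.7 CPM in F344 CRS and 58.3 to 75.6 CPM in F344 NS, and the platelet sum 86.9 to 99.3 CPM in F344 CRS and 44.6 to 71.7 CPM in F344 NS. Depth moved with it as well: the shallowest library of all, F344 NS replicate 3, held 90796 counts outside the top features and none for Oasl, and the F344 CRS libraries held 281942 to 419789. The part of cell makeup or depth in the Oasl values was not tested.

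Averaged over both strains, Oasl had a log2 change of CRS over NS of 1.38 (SE 0.540, 95% interval 0.29 to 2.48, unadjusted p = 0.00569, adjusted p = 0.495). In F344 its 3 CRS libraries lay above its 3 NS libraries, a pattern of 6.22% of the tested genes, but the WKY groups overlapped. The other 8 genes were between -0.15 for Slfn3 and 0.59 for Oas3, and 0 of 9 were called; across the 2781 genes 1 was called, 0.036%, with 197 at an unadjusted p under 0.05 and 3 calls by the DESeq2 Wald test. The difference between strains in the response, WKY minus F344, was tested directly. For Oasl it was -2.48 (SE 1.08, 95% interval -4.67 to -0.29, unadjusted p = 0.0126, adjusted p = 0.993), and for the other 8 it was between -0.95 for Oas3 and 0.45 for Mx2, with every interval holding 0. No gene was called for that difference by edgeR, 0%, with 106 at an unadjusted p under 0.05. None of the 9 was called in any CRS comparison under any setting that was run.

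**Figure D2:**
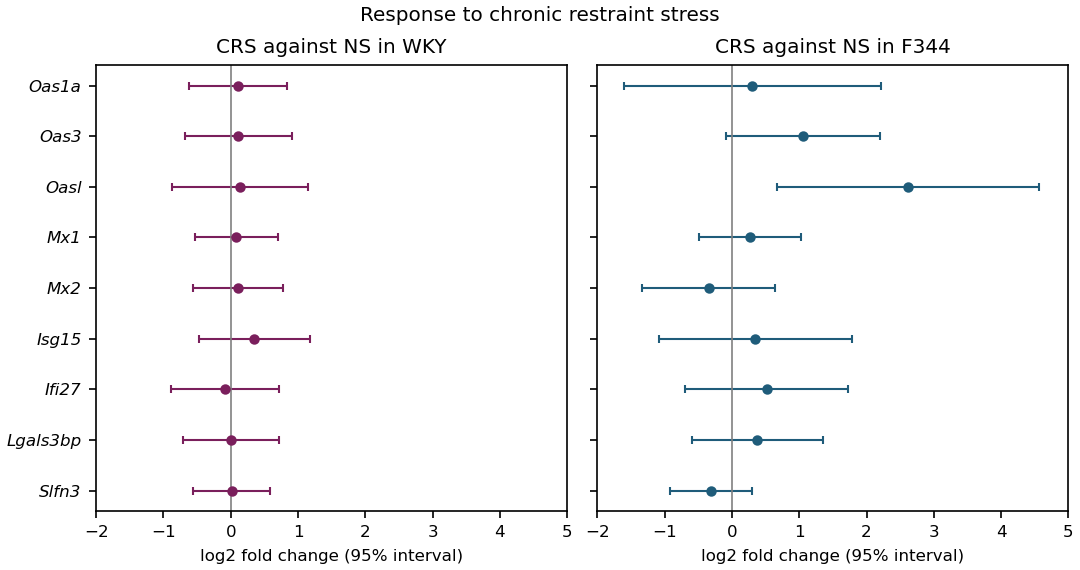
Log2 fold change of CRS over NS for the 9 genes in WKY (left) and F344 (right), with bars for the 95% interval of the fit (n = 3 libraries per group). Intervals hold 0 for every gene except Oasl in F344, at 2.62 with an interval of 0.68 to 4.56, whose adjusted p was 0.530; the F344 intervals are wider.

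The rest of the interferon pathway was read from lists of 139 genes, of which 109 were in the files and 63 passed the filter. Averaged over treatments, 50 of the 63 had a positive log2 difference of WKY over F344, with a median of 0.29, while 49.1% of all tested genes were positive, with a median of -0.01. Past the threshold were 6 of 63, all higher in WKY, where 2.12% of all tested genes were called higher. They were Irf7, Rtp4, Ifit2, Ifit3, Phf11 and Oas1k. The lists were chosen with earlier results of these data known, and a gene can pass the filter through the higher strain alone. Neither these shares nor the adjusted p of these strain differences are therefore independent support. By list, 27 of 30 other effectors were positive with a median of 0.51 and 4 called, and 5 of 6 interferon regulatory factors were positive with a median of 0.04 and 1 called. Of the further OAS genes and RNase L 1 of 3 was positive and called. Positive but with 0 called were 2 of 3 relatives of Mx, Ifi27 and Slfn genes, 3 of 3 ISG15 enzymes, 5 of 7 sensors and adaptors (median 0.16) and 7 of 11 receptors, kinases, STATs and inhibitors (median 0.07).

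Ifit3, which binds viral RNA together with its relatives, had 16.6, 10.5 and 27.9 CPM in WKY CRS and 15.9, 18 and 8.13 CPM in WKY NS, against 9.29, 8.88 and 6.90 CPM in F344 CRS and 8, 1.83 and 4.58 CPM in F344 NS. Its log2 difference was 1.27 (SE 0.288, adjusted p = 0.00477), which became 1.01 with an adjusted p of 0.125 when both shallowest libraries, F344 NS replicates 2 and 3, were left out. The next genes averaged under 5 CPM and were picked for mention after their values were seen. In F344, Rtp4 had 8 counts in CRS and 7 in NS, and Ifit2 had 27 in CRS and 9 in NS. Phf11 had 16 counts in F344 CRS and 6 in F344 NS, and Oas1k had 35 and 10 in that order. Rtp4, a receptor chaperone that in mouse dampens the interferon response, differed by 2.16 (SE 0.503, adjusted p = 0.00273) and Ifit2 by 1.64 (SE 0.389, adjusted p = 0.00505), and both were called in 21 of 21 settings. Phf11, a PHD-finger protein, differed by 1.58 (SE 0.479, adjusted p = 0.0428) and was called in 8 of 21 settings. Oas1k, another OAS gene, differed by 1.21 (SE 0.378, adjusted p = 0.0483) and was called in 7 of 21.

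For most of the 30 other effectors the interval of the strain difference averaged over treatments held 0. It lay apart from 0 for 12 of them. Rsad2 encodes viperin, an antiviral enzyme. It had 187, 276 and 244 CPM in WKY CRS and 166, 185 and 255 CPM in WKY NS, against 181, 204 and 163 CPM in F344 CRS and 143, 325 and 287 CPM in F344 NS. The groups overlapped, and its log2 difference was 0.03 (95% interval -0.42 to 0.47, adjusted p = 0.980). Ifit1, the cap-sensing relative of Ifit3, differed by 0.25 (95% interval -0.21 to 0.70, adjusted p = 0.680). Both genes were likewise picked after their values were seen.

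Upstream of the 9 genes, the pathway's transcription factors were measured and its ligands hardly were. Irf7, the factor that amplifies interferon production, had 308 ± 55.8 CPM in WKY CRS and 254 ± 30.9 CPM in WKY NS, against 88.5 ± 11.5 CPM in F344 CRS and 55.3 ± 4.72 CPM in F344 NS (SD, n = 3 each), a log2 difference of 2.00 (SE 0.200, adjusted p = 1.25e-08) averaged over treatments. Irf7 came from a list chosen with earlier results of these data known, so the adjusted p of its strain difference is no independent support. The log2 change of CRS over NS for Irf7 was 0.28 (adjusted p = 0.975) in WKY and 0.67 (adjusted p = 0.918) in F344. Stat2 and Irf9, which act together at the ISRE, had log2 strain differences of 0.69 (SE 0.279, adjusted p = 0.186) for Stat2 and 0.80 (SE 0.323, adjusted p = 0.176) for Irf9. Among receptor genes, Ifnar1, of the type I interferon receptor, differed by -0.0044 (SE 0.243, adjusted p = 0.998). For the interferon-gamma receptor the differences were -0.52 for Ifngr1 (SE 0.347, adjusted p = 0.532) and 0.07 for Ifngr2 (SE 0.380, adjusted p = 0.960). Among kinases they were -0.13 for Jak1 (SE 0.209), 0.36 for Jak2 (SE 0.341) and 0.04 for Tyk2 (SE 0.226), with adjusted p of 0.843, 0.682 and 0.963 in that order. Of 6 interferon genes in the files, 2 had any count, with 2 counts over all 12 libraries, so their levels could not be compared at this depth.

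In the CRS comparisons within WKY and within F344, 0 of the 63 pathway genes were called by edgeR or by DESeq2. In WKY 3 of the 63 had an unadjusted p under 0.05 by edgeR, beside 161 of all 2781 tested genes. In F344 it was 3 of the 63, beside 130 of 2781. Both were close to the share over all genes, so nothing is read from these genes as a set. In WKY these were Irf5 at a log2 change of 0.91 (SE 0.419, adjusted p = 0.787), Irf3 at -1.08 (SE 0.532, adjusted p = 0.827) and Trim25 at -0.94 (SE 0.392, adjusted p = 0.787). In F344 they were Myd88, an adaptor of the Toll-like receptors, at 1.17 (SE 0.553, adjusted p = 0.918), Irf7 at 0.67 and Irf5 at -0.91 (SE 0.439, adjusted p = 0.918). Irf5, a factor downstream of those receptors, had opposite signs in the strains; the difference in its response, WKY minus F344, was 1.82 (SE 0.607, unadjusted p = 0.00445, adjusted p = 0.993) and did not pass the threshold.

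**Figure D3:**
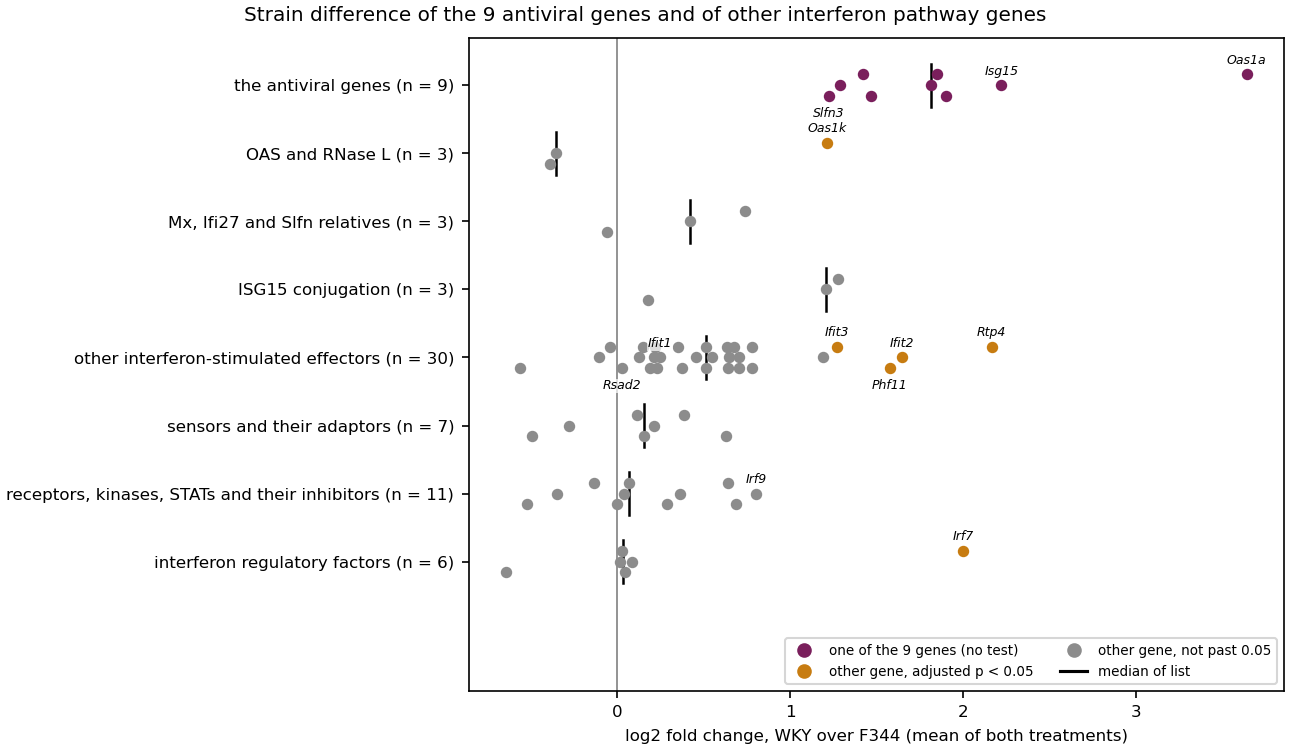
Log2 fold change of WKY over F344, averaged over both treatments, for the 9 genes (top row) and for 63 other interferon pathway genes by list; each point is a gene, black bars are list medians, and the 9 genes carry no test. The 9 lie between 1.22 and 3.64, and 6 other genes, Irf7, Rtp4, Ifit2, Phf11, Ifit3 and Oas1k, pass an adjusted p of 0.05, while Rsad2 lies at 0.03. The lists were chosen with earlier results of these data known.

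The genes whose pattern over the 12 libraries was most like the mean pattern of the 9 were found among 1102 candidates by the root mean square difference of centred log2 CPM, given as a description since both share depth and strain. They were RT1-S3 at 0.266, Irf7 at 0.314, RT1-CE5 at 0.346, Supt5h at 0.364 and Thbs1 at 0.411, where the median candidate was at 0.945. RT1-S3 and RT1-CE5 are rat MHC class I genes, Supt5h encodes a transcription elongation factor, and Thbs1 is a platelet granule protein that was also on the platelet marker list. RT1-S3 averaged 45.7 CPM in WKY CRS and 42.5 CPM in WKY NS, against 14.9 CPM in F344 CRS and 12.8 CPM in F344 NS. The 9 genes themselves, which enter the mean, were at 0.352 for Isg15 to 0.736 for Oasl.

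Blood cell markers were summed in each library. The monocyte sum, over the 11 of 12 markers in the files, was 125 to 172 CPM in WKY CRS and 128 to 138 CPM in WKY NS, against 82.3 to 88.7 CPM in F344 CRS and 58.3 to 75.6 CPM in F344 NS. It was thus higher in WKY with no overlap, as the summed level of the 9 genes was, and all 5 monocyte markers that passed the filter had positive strain differences under both treatments. The T cell sum, over 12 of 14 markers, was lower in WKY, at 28.8 to 46.6 CPM in WKY CRS and 33.1 to 36.0 CPM in WKY NS, against 51.2 to 53.1 CPM in F344 CRS and 50.6 to 65.4 CPM in F344 NS. The eosinophil and basophil sum, over 8 of 8 markers, was also lower, at 27.9 to 58.0 CPM in WKY CRS and 39.5 to 48.1 CPM in WKY NS, against 144 to 160 CPM in F344 CRS and 72.0 to 191 CPM in F344 NS. Of these 8 markers, 1 passed the filter on low counts and Cpa3 was at 0, so the sum can rest largely on 1 gene.

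Neutrophil markers, 12 of 12 in the files, summed to 58.8 to 62.8 CPM in WKY CRS and 53.7 to 74.8 CPM in WKY NS, against 46.7 to 58.1 CPM in F344 CRS and 38.9 to 62.9 CPM in F344 NS. They stood apart after CRS and overlapped without stress. Platelet markers, 12 of 14 in the files, summed to 105 to 177 CPM in WKY CRS and 60.4 to 122 CPM in WKY NS, against 86.9 to 99.3 CPM in F344 CRS and 44.6 to 71.7 CPM in F344 NS, and likewise stood apart after CRS alone. Markers of plasmacytoid dendritic cells, the main makers of type I interferon in blood, were 7 of 9 in the files and summed to 3.49 to 8.54 CPM in WKY CRS and 7.37 to 10.5 CPM in WKY NS, against 4.78 to 7.67 CPM in F344 CRS and 2.44 to 8.55 CPM in F344 NS, with overlap under both treatments. Of the 7 plasmacytoid dendritic cell markers in the files, 1 passed the filter on low counts. B cell, NK cell and reticulocyte sums overlapped between strains too. The markers at 0 in every library were Il7r (T cell), Gp1bb (platelet) and Cpa3 (basophil), and the part of cell makeup in the strain differences of the 9 genes was not tested.

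**Figure D4:**
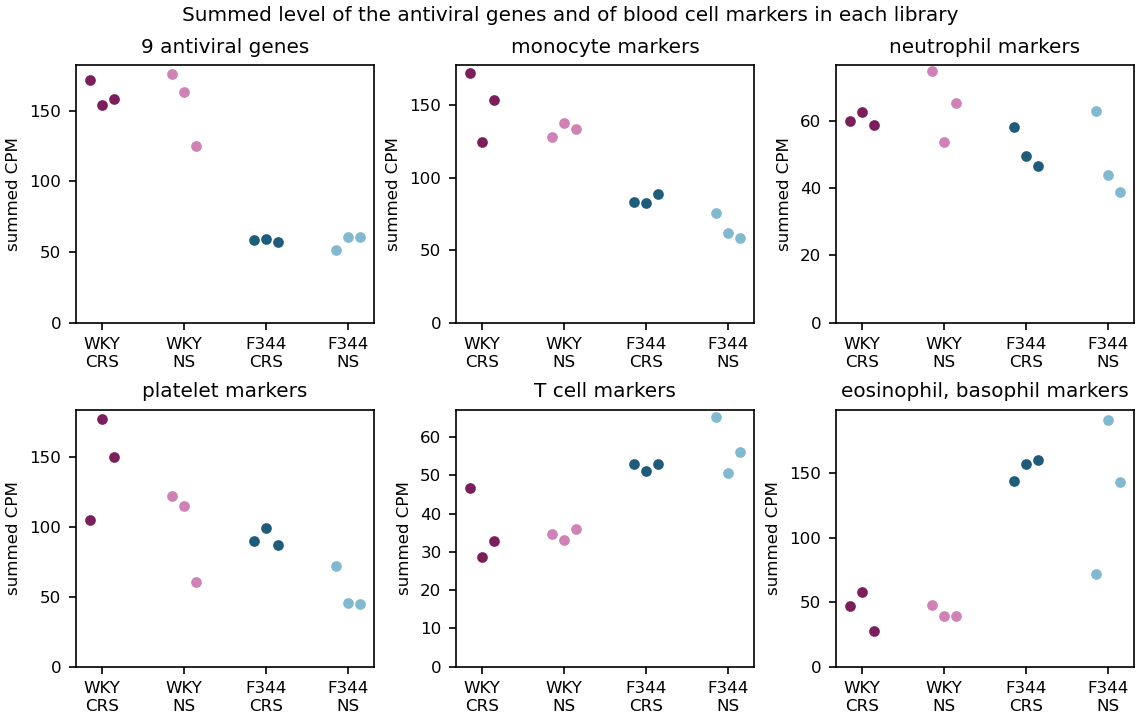
Summed CPM (linear axis from 0) of the 9 genes and of 5 marker lists in each of the 12 libraries; each point is a library. The monocyte sum separates the strains as the 9 genes do, at 125 to 172 CPM in WKY and 58.3 to 88.7 CPM in F344, and the T cell and eosinophil and basophil sums run the other way. Of the eosinophil and basophil markers, 1 passed the filter on low counts.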

How the data were processed

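The deposited values were whole-number read counts per gene, not normalised, 1 file per library, for RNA from PAXgene blood tubes sequenced by standard Ion Proton protocols, per the labels. Build rn6 and the tools TopHat2 2.1.0, cutadapt 1.14 and Cufflinks 2.2.1 are listed in the submitters' processing notes, and what counted the reads, on which annotation and strand, is not given in the sources used here. Rows that name no gene, 5 per file, took 80.9% to 86.6% of counts and stayed out of totals and tests. Most of them, 78.3% to 83.6% of counts, were recorded as ambiguous; whether this touched the 9 genes was not tested. Groups came from the sample titles.

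Tests used edgeR 4.0.16 under R 4.3.3 (glmQLFit, glmQLFTest, TMM, filterByExpr with a minimum count of 10, 2781 genes). A single model with a mean for each of the 4 groups held all 12 libraries, and Benjamini-Hochberg adjustment ran over all 2781 genes, with 0.05 as threshold. Standard errors and 95% intervals came from the fitted weights and quasi-dispersions. The step was tested on simulated data. Alternatives were DESeq2 1.42.0, limma 3.58.1 voom with quality weights, other scalings and filters, a replicate block, the compared groups alone and fewer libraries. Count ratios have exact binomial intervals.

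The 9 genes and all lists were chosen with earlier results of these data known. Pathway genes are named by rule where they average at least 5 CPM, up to 4 per direction past the threshold or else up to 2 by smallest p, per list and comparison; exceptions are marked. The 5 genes most like the 9 come from genes of at least 5 CPM, with a prior count of 2. Promoters are RefSeq's, build GRCr8, and 14816 of 17337 symbols were found in RefSeq's gene table.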

Additional observations from a re-analysis of the deposited data

How the results depend on the processing

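No alternative called any of the 9 genes in a CRS comparison, and their strain differences stayed positive in all 21 to 23 settings per comparison, except Oasl after CRS. Counts over all 2781 genes were unstable. For CRS in F344, 0 calls became 2 with limma-voom and 5 without a filter; for CRS in WKY, 0 became 8 without a filter. For CRS averaged over strains, 1 call became 2 with upper quartile scaling, 3 with DESeq2, 2 with limma-voom, 6 without a filter, 2 with the replicate block and 0 without both shallowest libraries (F344 NS replicates 2 and 3). For the difference in response, 0 became 1 with upper quartile scaling, 3 without a filter and 1 without both shallowest. For WKY against F344 without stress, 19 became 5 without both shallowest and 9 with the compared groups alone, and averaged over treatments 104 became 43 without both shallowest.

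Without a filter the median difference in response over all genes was -0.24. Small log2 changes changed sign. With limma-voom, Oas1a was at -0.53 for CRS in F344, -0.21 for CRS averaged and 0.64 for the difference, and Oasl was at -0.0561 for CRS in WKY. Without a filter, Slfn3 was at 0.0746 for CRS in F344, 0.0535 averaged and -0.0422 for the difference, Mx2 at 0.0543 averaged and Isg15 at -0.30 for the difference. Without both shallowest libraries, Slfn3 was at 0.0843 for CRS in F344, 0.0573 averaged and -0.0541 for the difference. For Isg15 the difference was -0.0156 under upper quartile scaling, -0.0164 without the 3 most abundant features and -0.0762 with the replicate block. Lgals3bp, at 0.00 for CRS in WKY, was at -0.0031 under upper quartile scaling, -0.0045 without the 3 most abundant features, -0.20 with limma-voom, -0.0671 with a minimum count of 30, -0.0201 with the replicate block and -0.0072 with the compared groups alone; Slfn3 was at -0.0208 there with a minimum count of 30. The cause was not tested.

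Leaving out each library in turn gave 0 to 5 calls for CRS in F344, 0 to 2 in WKY, 0 to 5 averaged and 0 to 2 for the difference, and for WKY against F344 18 to 46 after CRS, 5 to 45 without stress and 59 to 130 averaged. The ends were replicates 1 (45) and 2 (5) of F344 NS without stress and replicates 1 (18) and 3 (59) of F344 CRS after CRS and averaged. Log2 ranges that crossed 0 were, for CRS in WKY, Oas1a -0.0623 to 0.30, Oas3 -0.19 to 0.28, Oasl -0.28 to 0.61, Mx1 -0.10 to 0.34, Ifi27 -0.35 to 0.18, Lgals3bp -0.44 to 0.40 and Slfn3 -0.10 to 0.22; for CRS in F344, Oas1a -0.31 to 0.68 and Isg15 -0.28 to 1.01; averaged, Oas1a -0.10 to 0.40, Ifi27 -0.0090 to 0.69 and Lgals3bp -0.0154 to 0.41; for the difference, Oas1a -0.56 to 0.43, Mx1 -0.41 to 0.0594 and Isg15 -0.66 to 0.64; and for the strains after CRS, Oasl -0.20 to 0.54.

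Replicate numbers are shared across groups. Of 12 same-numbered pairs, 4 correlated over 0.1 and 7 matched their own number best, including every pair of F344 CRS with F344 NS. No pairing is stated in the labels, and whether a shared number marks a batch was not tested. With the replicate block, calls were 0 for CRS in each strain and for the difference, and for WKY against F344 42 after CRS, 25 without stress and 120 averaged. With a minimum count of 30, some of the 9 genes were too low to be tested. Depth limits every level below a few CPM.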
